A study of Musa balbisiana with 10 samples.

Results

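Regions on unplaced scaffolds are stretches of the banana B genome assembly that were not assigned to any of its 11 chromosomes. Loci of at least 300 bp on sequences named Bscaffold were pooled from the tables of all 10 libraries, overlapping loci were merged on each scaffold, and FPKM was summed per library. There were 1791 such regions with a row in every table, out of 27929 regions built in the same way over the whole assembly (6.41%). They lay on 346 scaffolds, and the other 26138 regions lay on the chromosomes. A mean FPKM of at least 1 over the 10 libraries was required for testing, and 604 scaffold regions (33.7%) and 16217 chromosome regions (62.0%) met it. The nearest scaffold regions on either side of that limit were Bscaffold383:25343-25760, with a mean FPKM of 0.997, and Bscaffold13:195514-197463, with 1.03.

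The samples were fruit pulp of Klutuk Wulung banana, a Musa balbisiana cultivar of the BB group, from which total RNA was taken and sequenced. Control fruit received no ethylene, and ethylene-treated fruit was exposed to 100 µl/L of exogenous ethylene gas in a glass container. By the paper's methods, the bananas were incubated for a day and afterwards kept at room temperature outside the container. The days in the group names are therefore days of ripening, not days of exposure to the gas. Day 1 of ripening had 2 control libraries (A and B) and 2 ethylene libraries (A and C), and day 7 had 3 libraries (A, B and C) of each treatment. Reads were single-end in 3 libraries, the A libraries of control day 1, control day 7 and ethylene day 7, and paired-end in 7. The sample labels give no number of fruits or bunches behind a library, so the p-values measure the spread between these libraries. The tables hold FPKM, fragments scaled to the length of the transcript and to the mapped fragments of the library. They give no fragment counts, so the number of fragments behind each value is not given. The paper lists total reads and the percentage mapped for the libraries, which were not turned into fragment numbers here.

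Ethylene is the hormone that starts ripening in climacteric fruit such as banana. Its receptors sit in the membrane of the endoplasmic reticulum, and once they bind the gas they no longer hold the pathway off, so that transcription factors switch on genes for softening, starch breakdown and aroma. Unplaced scaffolds are what an assembler leaves over when repeats or a lack of map markers keep a sequence off the chromosomes, and they may carry genes, repeats and copies of chromosomal sequence. The tables and the reference table of genes give identifiers without gene names or functions, so the scaffold regions are named here by their coordinates on DH PKW v1.1 and, where they overlap one, by the reference locus tag. All 30 regions chosen by rule are described below, and the few named beyond the rule are marked as such.

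Most scaffold regions carried little or no measured RNA in this pulp. Of the 1791 regions, 831 were listed at 0 in all 10 libraries, 356 were above 0 in some library with a mean below 1, and 604 had a mean of at least 1. Of the 831 regions at 0, 830 had exactly the span of a gene in the reference table, and 518 of them carried only names that the assembler had numbered. The tables therefore list gene models whether or not fragments were found. Among the 1371 regions that had the span of exactly 1 protein-coding gene, 193 (14.1%) reached a mean of 1 and 830 (60.5%) were at 0 throughout. Of the 410 regions with no matching gene span, 401 reached a mean of 1. Such regions have a row only where the assembler drew a locus, and a row in every table was required. Their count therefore follows largely from how regions were kept and cannot be set against the share among gene spans.

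The 604 tested regions covered a wide range of levels. Their median of mean FPKM was 7.74, with quartiles of 3.65 and 17.4, and the chromosome regions had a median of 9.11. A mean of at least 100 FPKM was found in 47 scaffold regions, 7.78% of those tested, and in 421 chromosome regions, 2.60% of those tested. The scaffold regions were shorter, with a median of 1323 bp over all 1791 members and 4609 bp over the chromosome regions, tested or not. Over the 604 tested scaffold regions the median was 3830.5 bp, and that of tested chromosome regions is not given here. Within each length class the share of tested regions at 100 FPKM or more was higher on scaffolds, at 9.68% and 4.96% below 1000 bp, 9.32% and 4.04% from 1000 bp to under 3000 bp, and 6.57% and 2.35% from 3000 bp upward.

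Of the 604 regions, 498 lay on scaffolds that could be paired with a scaffold of the reference table. Among these, 220 overlapped a protein-coding gene, 3 overlapped a pseudogene alone, and 275 overlapped no annotated gene. The other 106 lay on scaffolds that were not paired, where overlap with a gene could not be looked up. Regions with a protein-coding gene had a median of mean FPKM of 12.5, and those on paired scaffolds without a gene had 6.59. The tested regions were spread over 145 scaffolds, and 73 of these held 1 tested region each. The 5 scaffolds with the most tested regions were Bscaffold2 (51), Bscaffold13 (34), Bscaffold1 (34), Bscaffold15 (23) and Bscaffold3 (23), which held 27.3% of the total. Few of their tested regions were found to overlap a protein-coding gene, 4 on Bscaffold2, 5 on Bscaffold13, 1 on Bscaffold3 and 0 on Bscaffold15. Bscaffold1 was not paired, so overlap could not be looked up there, and whether Bscaffold15 was paired is not given here. On the other scaffolds, some of them also unpaired, 210 of the 439 tested regions overlapped such a gene.

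The scaffold share of all region FPKM was lower in every ethylene library than in every control library. On day 1 the scaffold regions held 7.84% and 7.97% of region FPKM in control libraries A and B, and 4.08% and 4.17% in ethylene libraries A and C. On day 7 they held 8.69%, 10.6% and 8.61% in control libraries A, B and C, and 5.79%, 5.76% and 6.15% in ethylene libraries A, B and C. The groups did not overlap on either day, and the largest spread was in control day 7, where library B stood above A and C. Scaffold loci under 300 bp are not in this share. They held 140969 FPKM in ethylene day 7 B, more than the 25445 of its scaffold regions, and 12913 in control day 7 A. In the other libraries they held 1537 to 2814 FPKM. The order of libraries is therefore stated only for regions built from loci of at least 300 bp.

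**Figure D1:**
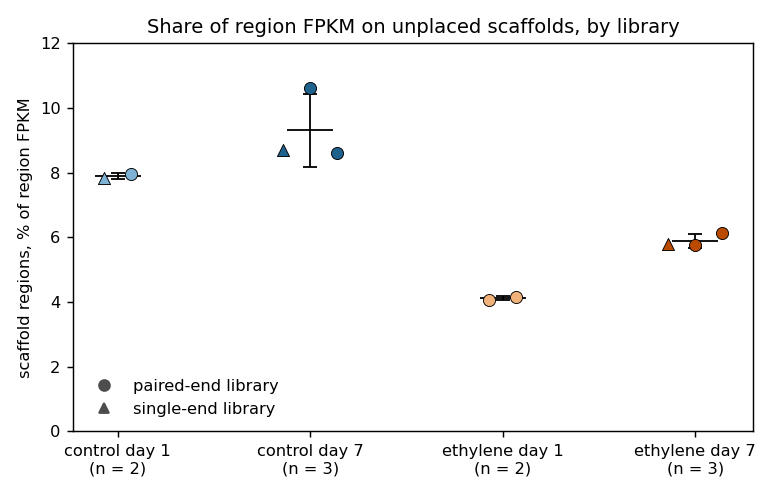
Scaffold regions' share of region FPKM (vertical axis, %) in each library of the 4 groups, with the group mean and SD as bars; circles are paired-end and triangles single-end libraries. The 4 groups had means of 7.91% (control day 1), 9.31% (control day 7), 4.12% (ethylene day 1) and 5.90% (ethylene day 7), and every ethylene library sits below every control library.

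Averaged over the 2 days, the share was 3.60 percentage points lower with ethylene (difference -3.60; exact permutation test of treatment within day, two-sided, p = 0.0167, also 0.0167 after adjustment over 3 library measures, the smallest value that the 120 arrangements allow). Group means were 7.91% ± 0.0933 (SD, n = 2) for control day 1, 9.31% ± 1.14 (SD, n = 3) for control day 7, 4.12% ± 0.0652 (SD, n = 2) for ethylene day 1 and 5.90% ± 0.216 (SD, n = 3) for ethylene day 7. Within day 7 alone the exact permutation p was 0.1, and within day 1 alone it was 0.333, each the smallest that the libraries of that day allow. Over loci listed at the same coordinates in all tables, in place of regions, a measure chosen after seeing the data, the difference was -10.3 percentage points (exact permutation p = 0.0167), so its size depends on which loci are summed. Both terms of the ratio of regions moved. The summed FPKM of scaffold regions with ethylene was 0.691 times that of controls on day 1 and 0.771 times on day 7, and the summed FPKM of chromosome regions was 1.38 and 1.26 times.

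On day 1, 525 of the 604 tested regions (86.9%) held a smaller share of region FPKM with ethylene than in controls, and on day 7, 551 (91.2%) did. Summed region FPKM rose with ethylene, so a region whose FPKM stays the same also loses share, and over chromosome regions the same percentages were 72.2% and 74.2%. By the log2 fold change, 70.9% of scaffold and 59.5% of chromosome regions were below 0 on day 1, and 80.5% and 58.8% on day 7, differences that were not tested. The 10 regions with the largest drops made up 41.4% of all drops on day 1 and 53.3% on day 7. With the 10 most abundant scaffold regions left out, the difference was -2.21 percentage points, and the median log2(FPKM + 1) of tested scaffold regions relative to that of chromosome regions was 0.198 lower with ethylene (difference -0.198), both with an exact permutation p of 0.0167. In the paired-end libraries alone the 3 differences were -3.75, -2.09 and -0.203, each with an exact permutation p of 0.0556, the smallest that the 18 arrangements allow.

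The most abundant region was Bscaffold3:2104-360293, a stretch of 358190 bp made of 16 to 63 loci per library that overlaps 8 protein-coding genes. Its FPKM was 1972 and 3961 in control day 1 A and B, 3866, 5117 and 5002 in control day 7 A to C, 3236 and 3509 in ethylene day 1 A and C, and 2474, 3104 and 4055 in ethylene day 7 A to C. The groups overlapped on day 1, and on day 7 a control library (A, at 3866) fell below an ethylene library (C, at 4055). A sum of this kind joins loci of different lengths, and the largest single locus held between 40.2% and 71.6% of it.

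Bscaffold44:88021-98401 was a single locus in every library and overlaps C4D60_Mb00t02300. It had 2192 and 2740 FPKM in control day 1 A and B, 2027, 2718 and 2419 in control day 7, 1686 and 1549 in ethylene day 1, and 1547, 2066 and 2134 in ethylene day 7. The 2 ethylene libraries of day 1 lay below both controls, but the difference did not pass the threshold on day 1 (log2 fold change -0.60 ± 0.25 SE, adjusted p = 0.0762 by limma) or on day 7 (-0.32, adjusted p = 0.32).

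Bscaffold22:143674-156972, over C4D60_Mb00t01000, had 1887 and 1605 FPKM in control day 1 A and B and 899 and 949 in ethylene day 1 A and C. It had 1903, 2872 and 1713 in control day 7, and 1543, 1242 and 1262 in ethylene day 7. All ethylene libraries were below all controls of the same day. The fall passed on day 1 (log2 fold change -0.91 ± 0.27 SE, adjusted p = 0.0196) and did not pass on day 7 (-0.65 ± 0.22 SE, adjusted p = 0.0776). The day 1 call was lost without control A (adjusted p = 0.0908), ethylene A (0.107) or ethylene C (0.0808) of that day.

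Bscaffold168:3912-4915, over C4D60_Mb00t10770, varied little within groups. It had 702 and 711 FPKM in control day 1, 800, 820 and 793 in control day 7, 372 and 360 in ethylene day 1, and 544, 549 and 571 in ethylene day 7. The libraries of a group lay close together and the groups of a day were far apart. The region fell with ethylene on day 1 (log2 fold change -0.95 ± 0.16 SE, adjusted p = 0.000953) and on day 7 (-0.54 ± 0.13 SE, adjusted p = 0.0214), and within ethylene-treated fruit it rose from day 1 to day 7 by 0.60 ± 0.14 SE (adjusted p = 0.0125). The day 7 call was lost when any of the 5 ethylene libraries was left out (adjusted p between 0.055 and 0.0886), and the rise when either of those of day 1 was (0.0943 and 0.117).

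Bscaffold116:19562-23737, over C4D60_Mb00t07720, was split by sequencing layout. The single-end libraries had 1610 (control day 1 A), 1964 (control day 7 A) and 1506 FPKM (ethylene day 7 A), above all paired-end libraries, which ranged from 421 (ethylene day 1 C) to 942 (control day 7 C). It was called lower with ethylene on day 1 (-1.51 ± 0.45 SE, adjusted p = 0.022), a day on which 1 control library and no ethylene library is single-end. The paired-end control of that day had 902 FPKM and the ethylene libraries 425 and 421. Without the single-end control the difference was -1.09 (adjusted p = 0.15), and without ethylene A or C of day 1 the adjusted p was 0.0861 and 0.0867.

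The opposite split was seen at Bscaffold231:33897-34906, which carries the annotated identifier Mba00_g13560.v1.1. It was listed at 0, 9.79 and 3.93 FPKM in the 3 single-end libraries (those of control day 1, control day 7 and ethylene day 7, in that order). In paired-end libraries it had 923 in control day 1, 1031 and 1278 in control day 7, 361 and 382 in ethylene day 1, and 774 and 729 in ethylene day 7. The ethylene comparison did not pass on either day (adjusted p = 0.419 and 0.881).

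Bscaffold219:44163-51198 lies on a scaffold that was not paired, so its overlap with genes could not be looked up. It was far higher in 3 libraries than in the other 7. It had 2844 FPKM in control day 7 B, 2375 in ethylene day 7 B and 2292 in ethylene day 7 C, and between 129 and 256 in the other 7 libraries. In the 3 libraries with high values the assembler had drawn the main locus as 1456 to 1459 bp, and in the other 7 as 7025 to 7032 bp. The 3 are all paired-end libraries of day 7, of both treatments, and all 4 libraries of day 1 were among the 7. The part of the drawn length in these values was not tested, and no ethylene comparison passed (adjusted p = 0.894 on day 1 and 0.675 on day 7).

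The remaining 3 of the 10 most abundant regions did not pass for ethylene on either day. Bscaffold12:173373-186372, over 4 genes, ranged from 968 to 1752 FPKM, and its ethylene libraries of day 7 (968 to 1366) lay below the controls (1610 to 1752; adjusted p = 0.0636). Bscaffold19:233020-234495, over C4D60_Mb00t00940, ranged from 749 to 1395. Bscaffold51:26938-27689, annotated as Mba00_g02450.v1.1, was the one with higher values in ethylene libraries, 662 to 961 against 325 to 818 in controls (day 7 log2 fold change 0.93 ± 0.30 SE, adjusted p = 0.0694).

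**Figure D2:**
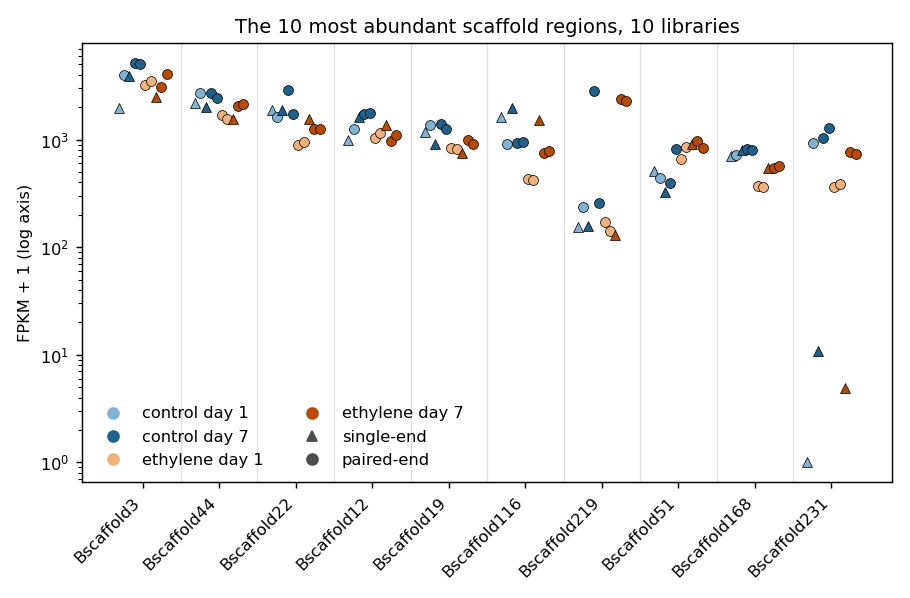
FPKM + 1 (vertical log axis) of the 10 most abundant scaffold regions, in order of mean FPKM; each point is a library, coloured by group, with triangles for single-end and circles for paired-end libraries. The single-end libraries of Bscaffold231 lie at 0 to 9.79 FPKM under paired-end values of 361 to 1278, and Bscaffold219 has 3 libraries at 2292 to 2844 FPKM above 7 at 129 to 256.

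Single regions were compared with limma on log2(FPKM + 1), in 1 model of the 4 groups over all 16821 tested regions, with adjusted p under 0.05 as the threshold. On day 1, 23 scaffold regions were higher and 93 lower with ethylene, 19.2% of the 604 together. Over all tested regions 17.1% were higher and 24.8% lower, so scaffold regions passed at a smaller share in each direction, a difference that was not tested. In all 116 called regions the ethylene and control libraries of day 1 did not overlap. This adds no support to the calls, since a call between 2 and 2 libraries leaves little room for overlap. The share without overlap among all tested regions is not given here. Of the called regions, 11 of the higher and 68 of the lower ones differed by at least 1 on the log2 scale. The median log2 fold change was -0.32 over scaffold regions and -0.23 over chromosome regions. With median-of-ratios size factors, which moved the median of all regions from -0.24 to -0.02, 50 scaffold regions were higher and 69 lower, and with quantile normalization 41 and 91.

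On day 7, 12 scaffold regions were higher and 36 lower with ethylene. Over all tested regions 8.75% were higher and 4.71% lower, so chromosome regions that passed were mostly higher (1459 against 757) and scaffold regions mostly lower. The median log2 fold change was -0.32 over scaffold regions and -0.10 over chromosome regions. Of the 48 regions, 6 rose and 5 fell by at least 1 on the log2 scale. The count of 48 dropped to 21 without control day 7 B and to 26 without either ethylene day 1 library. It was 19 without ethylene day 7 B, of which 9 were higher, and 19 without ethylene day 7 C, of which 10 were higher. With layout as a term in the model it was 91, of which 79 were lower.

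Among scaffold regions, most calls fell on those that overlap an annotated gene. On day 1, 13 of the 220 regions with a protein-coding gene rose and 65 fell (35.5% called), against 9 and 23 of the 275 without a gene on paired scaffolds (11.6% called) and 1 and 4 of the 106 on unpaired scaffolds. On day 7 the regions with a gene had 11 higher and 22 lower, those without had 1 and 9, and those on unpaired scaffolds 0 and 5. The median log2 fold change on day 1 was -0.74 with a gene and -0.20 without. Levels also differed between these classes, as given above, and their part in the counts was not tested. The same split was not made for chromosome regions, of which 42.8% were called on day 1 and 13.7% on day 7. The 5 scaffolds with the most tested regions had few calls on day 1, with 4 lower on Bscaffold2, 3 higher and 1 lower on Bscaffold13, 1 higher and 1 lower on Bscaffold1, 0 on Bscaffold15 and 4 lower on Bscaffold3.

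**Figure D3:**
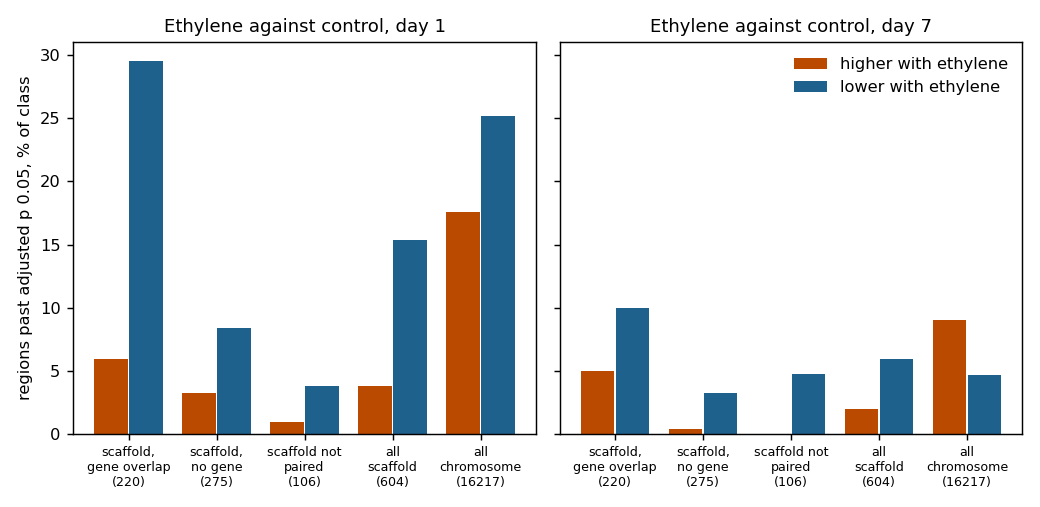
Percentage of tested regions past an adjusted p of 0.05 (vertical axis), higher or lower with ethylene, on day 1 and day 7, for scaffold regions with a protein-coding gene (220), without a gene (275), on unpaired scaffolds (106), all scaffold regions (604) and all chromosome regions (16217). On day 7 the bar for lower is taller than that for higher among all scaffold regions (36 against 12 regions), and the reverse holds among chromosome regions (757 against 1459).

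The largest rise was that of Bscaffold104:28418-29281, annotated as Mba00_g07210.v1.1 and matching C4D60_Mb00t07210. It was listed at 0 and 0.189 FPKM in control day 1 and at 0.15, 0 and 0.29 in control day 7. It had 149 and 146 FPKM in ethylene day 1 and 11.7, 12.02 and 12.4 in ethylene day 7. The region was near 0 in all 5 controls and the ethylene libraries of each day agreed closely. The log2 fold change, which understates the change of so low a region because of the added 1, was 7.09 ± 0.21 SE on day 1 (adjusted p = 2.76e-08) and 3.52 ± 0.17 SE on day 7 (adjusted p = 5.15e-07). The response on day 7 was smaller by 3.57 on the log2 scale (interaction -3.57 ± 0.27 SE, adjusted p = 8.1e-05). In ethylene-treated fruit the region fell from day 1 to day 7 by 3.51 (adjusted p = 3.68e-06).

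Bscaffold73 held 3 of the 5 largest rises of each day. Bscaffold73:99339-115929, over C4D60_Mb00t05130, had 0.3 and 1.49 FPKM in control day 1, 0.304, 0.588 and 0.329 in control day 7, 52.4 and 52.6 in ethylene day 1, and 4.76, 3.78 and 6.09 in ethylene day 7. Its neighbour Bscaffold73:95086-98453, annotated as Mba00_g05120.v1.1, had 2.67 and 5.02, then 2.33, 2.49 and 2.48 in the same control groups, and 39.2 and 43.6, then 12.6, 11.8 and 11.9 in the ethylene groups. Both were high in ethylene day 1, intermediate in ethylene day 7 and low in all controls. Their log2 fold changes on day 1 were 4.90 ± 0.32 SE (adjusted p = 3.13e-06) and 3.17 ± 0.24 SE (adjusted p = 8.4e-06), and on day 7 they were 2.05 ± 0.26 SE (adjusted p = 0.000513) and 1.93 ± 0.20 SE (adjusted p = 0.000118). The interaction was -2.85 ± 0.41 SE (adjusted p = 0.00215) and -1.24 ± 0.31 SE (adjusted p = 0.0275). The second interaction was lost when any of 7 libraries was left out (adjusted p between 0.0505 and 0.116).

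The third, Bscaffold73:10478-13567, over C4D60_Mb00t05080, had 1.12 and 0.746 FPKM in control day 1, 2.23, 2.4 and 1.54 in control day 7, 7.96 and 8.1 in ethylene day 1, and 8.54, 8.47 and 5.65 in ethylene day 7. Here the ethylene libraries of both days were at like levels, with log2 fold changes of 2.23 ± 0.26 SE (adjusted p = 0.000113) and 1.48 ± 0.21 SE (adjusted p = 0.00118), and the interaction did not pass (adjusted p = 0.169). Of the 7 tested regions on Bscaffold73, 3 rose on each day and 0 fell.

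Bscaffold16 had 4 tested regions, of which 2 rose on day 1 and 3 on day 7. Bscaffold16:146020-154480, over C4D60_Mb00t00890, had 11.1 and 8.69 FPKM in control day 1, 9.71, 8.08 and 7.98 in control day 7, 41.8 and 41.5 in ethylene day 1, and 17.2, 14.6 and 16.6 in ethylene day 7. It followed the same order of groups as the pair on Bscaffold73, with log2 fold changes of 1.98 ± 0.19 SE on day 1 (adjusted p = 4e-05) and 0.84 ± 0.16 SE on day 7 (adjusted p = 0.00657). Bscaffold16:110121-127806, over C4D60_Mb00t00880, had 2.52, 1.36 and 2.5 FPKM in control day 7 and 10.01, 4.71 and 5.14 in ethylene day 7 (1.24 ± 0.28 SE, adjusted p = 0.0177), with the highest value in the single-end library. It is a sum of 2 to 6 loci per library, and with the highest FPKM among them the difference was 0.80 (adjusted p = 0.0162). Without control day 7 B the adjusted p of the sum was 0.0642. On day 1 its difference did not pass (3.66 and 3.79 against 4.42 and 6.24 FPKM, adjusted p = 0.372).

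The 5 largest falls of day 1 all overlapped a gene. Bscaffold178:12747-13271, over C4D60_Mb00t11500, had 12.4 and 102 FPKM in control day 1 and 5.27 and 2.79 in ethylene day 1 (log2 fold change -2.93 ± 0.86 SE, adjusted p = 0.021). The controls of that day differed far more from each other than the ethylene libraries did, and the assembler's bounds for them, 9.62 to 15.2 and 93.8 to 109, did not overlap. Without control day 1 B the difference was -1.46 (adjusted p = 0.148), without control day 1 A it was -4.39 (0.00226), and without ethylene A or C of that day the adjusted p was 0.0503 and 0.11. Bscaffold58:54330-55700, annotated as Mba00_g03410.v1.1, had 1.93 and 14.2 FPKM in control day 1 and was listed at 0 in both ethylene libraries (-2.74 ± 0.64 SE, adjusted p = 0.00649). Without control day 1 B it was -1.55 (adjusted p = 0.0244) and without control day 1 A -3.92 (0.000361).

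Bscaffold173:4360-5253, over C4D60_Mb00t11140, had 62.8 and 25.9 FPKM in control day 1 and 7.69 and 4.2 in ethylene day 1 (-2.62 ± 0.50 SE, adjusted p = 0.00212). Its single-end libraries, at 35.7 to 62.8 FPKM, lay above all paired-end ones, at 4.2 to 27.4, and ethylene day 1 has no single-end library. Without the single-end control of day 1 the difference was -2.00 (adjusted p = 0.0205). The region returned to 35.7, 17.2 and 17.1 in ethylene day 7, a rise of 1.77 ± 0.45 SE in ethylene-treated fruit (adjusted p = 0.0173, and 0.149 without ethylene day 1 C). Bscaffold195:8264-10629, annotated as Mba00_g12370.v1.1, had 79.1 and 16.3 FPKM against 4.66 and 6.46 (-2.52 ± 0.54 SE, adjusted p = 0.00426). Its fall was -1.42 (adjusted p = 0.00461) without control day 1 A and -3.63 (3.86e-05) without B. Bscaffold224:19594-25438, over C4D60_Mb00t13220, had 88.7 and 34.9 against 9.05 and 9.06 (-2.50 ± 0.51 SE, adjusted p = 0.00338), and -1.84 (0.0319) without control day 1 A. In the last 3, control day 1 A, the single-end library, was the higher of the controls, and in the 2 before them control day 1 B was.

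None of these 5 passed for ethylene on day 7, with adjusted p between 0.165 and 0.427. The fall on day 1 was not shown to differ from that on day 7 in them either, with interaction adjusted p between 0.055 and 0.275.

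The 5 largest falls of day 7 were smaller, between -1.09 and -1.02 on the log2 scale. Bscaffold874:605-3900, over C4D60_Mb00t19050, had 190, 231 and 150 FPKM in control day 7 and 111, 77.7 and 77.9 in ethylene day 7 (-1.09 ± 0.28 SE, adjusted p = 0.0327). This call was lost without control A or B or ethylene B or C of day 7 (adjusted p between 0.0816 and 0.108). Its locus was drawn as 3132 to 3296 bp in control day 7 C and in ethylene day 7 B and C, and as 1962 bp in the other 7 libraries, and the part of this was not tested. On day 1 it fell further, from 97.2 and 177 to 37.1 and 21.6 (-2.17 ± 0.35 SE, adjusted p = 0.000819). Bscaffold40:87347-135463, annotated as Mba00_g02180.v1.1, had 15.5, 14.7 and 10.7 FPKM in control day 7 and 7.6, 4.92 and 5.14 in ethylene day 7 (-1.09 ± 0.22 SE, adjusted p = 0.0101), and also fell on day 1 (-1.44 ± 0.27 SE, adjusted p = 0.00216). It is a sum of 2 to 13 loci per library, and the most abundant of them was not the same stretch in all libraries. With the highest FPKM among the loci the differences were -0.73 (adjusted p = 0.00842) on day 7 and -0.60 (0.0218) on day 1.

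Bscaffold47:117485-128242 was the only one of these 5 for which no overlapping gene was found. It had 16.7, 19.2 and 17.4 FPKM in control day 7 and 10.5, 7.31 and 7.19 in ethylene day 7 (-1.02 ± 0.18 SE, adjusted p = 0.00376), a sum of 2 to 6 loci per library that came to -0.58 (adjusted p = 0.0359) with the highest FPKM among them. Its day 1 difference did not pass (-0.35, adjusted p = 0.216). Bscaffold231:46288-46865, over C4D60_Mb00t13570, had 19.1, 49.4 and 27.3 against 10.9, 17.1 and 13.6 (-1.06 ± 0.30 SE, adjusted p = 0.0457) and lost its call under 17 of 26 other settings, 9 of them with a library left out. Bscaffold115:24147-64657, over 2 genes, was low throughout, with 3.88, 1.96 and 3.23 against 0.497, 1.8 and 0.738 (-1.02 ± 0.26 SE, adjusted p = 0.0309). In control day 7 A and C it was drawn as 1 locus of 40511 bp, while in control day 7 B and all ethylene libraries of that day its most abundant locus had 4550 to 4574 bp, and the part of this was not tested. It lost that call without any 1 of 6 libraries, control day 7 A or C, or A or C of either ethylene group (adjusted p between 0.0509 and 0.103). On day 1 it went from 1.77 and 2.22 to 0.0181 and 0.014 (-1.55 ± 0.32 SE, adjusted p = 0.00367).

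**Figure D4:**
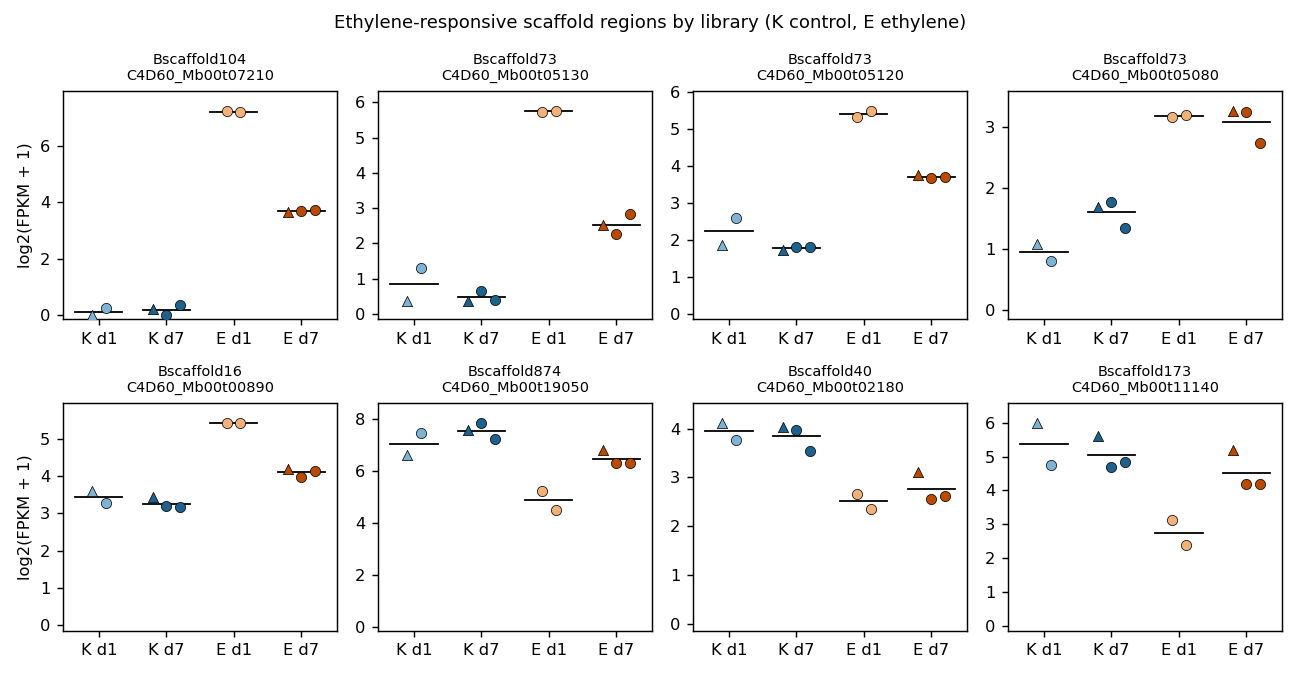
log2(FPKM + 1) (vertical axis) of 8 scaffold regions that rose or fell with ethylene, by group (K control, E ethylene, d1 and d7 the day), titled by scaffold and reference locus tag; each point is a library (triangles single-end) and each bar a group mean. The 5 rising regions are lower in every control than in every ethylene library, and the first goes from at most 0.29 FPKM in controls to 149 and 146 in ethylene day 1.

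The calls of the 2 days overlapped in 31 regions, 26.7% of the 116 called on day 1 and 64.6% of the 48 called on day 7. Of these, 8 were higher on both days, 23 were lower on both and 0 went in opposite directions. Over chromosome regions the overlap was 1802, 25.99% of the 6934 called on day 1 and 81.3% of the 2216 called on day 7, and 61 of them (3.39%) went in opposite directions. The comparisons of the 2 days used different libraries, but one estimate of the spread. Beyond the regions named by rule, Bscaffold89:25169-27119, over C4D60_Mb00t06540, was picked after its values were seen, because it had one of the larger falls on both days. It had 37.8 and 30.9 FPKM in control day 1 against 6.98 and 8.28 with ethylene, and 54.6, 49.7 and 51.9 in control day 7 against 34.5, 26.6 and 29.2.

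**Figure D5:**
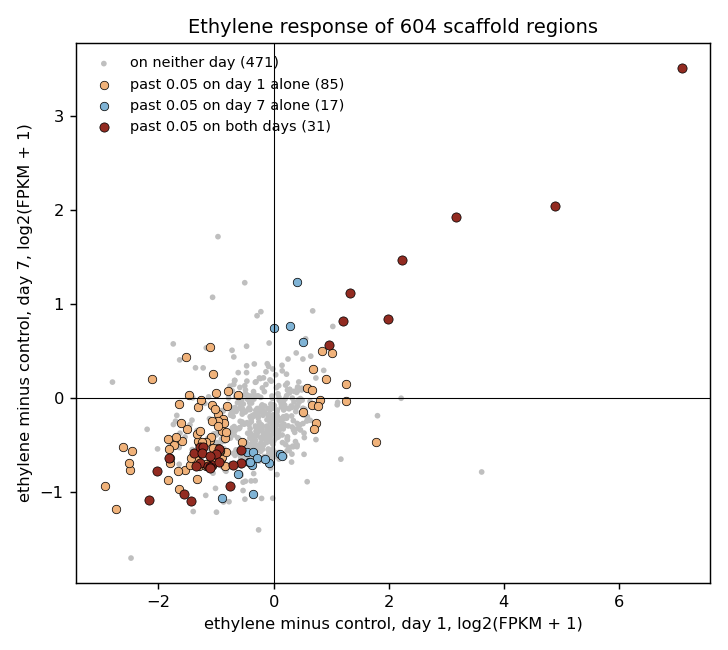
Ethylene minus control on the log2(FPKM + 1) scale on day 1 (horizontal axis) and day 7 (vertical axis) for the 604 tested scaffold regions, coloured by the days on which they passed an adjusted p of 0.05. The 31 regions that passed on both days lie in the lower left (23) and upper right (8), and the outermost point, at 7.09 and 3.52, is Bscaffold104:28418-29281.

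The ethylene effect differed between the days for 16 scaffold regions, 9 with a higher log2 fold change on day 7 than on day 1 and 7 with a lower one. Over all tested regions 8.31% had a higher and 5.90% a lower one. All 9 of the former overlapped a gene and had fallen on day 1. Their log2 fold change on day 7 was a smaller fall, between -0.78 and -0.08, except at Bscaffold4:295945-305094, named beyond the rule, where it was 0.54. In the 7 with a lower one it was positive on day 1 and between -0.46 and 3.52 on day 7. With median-of-ratios size factors the counts were 6 and 16, and with quantile normalization 9 and 16. The count of 16 became 35 without control day 1 B (24 and 11). It was 4 when ethylene day 1 A was left out, 6 for ethylene day 1 C and 9 for ethylene day 7 C.

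The third smallest interaction p belonged to Bscaffold7:203269-209854, which overlaps no gene. It had 3.68 and 7.24 FPKM in control day 1, 16.2, 27.2 and 22.5 in control day 7, 21.6 and 18.9 in ethylene day 1, and 16.4, 15.4 and 14.1 in ethylene day 7. The controls of day 1 were low and all other libraries high (interaction -2.23 ± 0.39 SE, adjusted p = 0.00516). In both controls of day 1 the largest locus was drawn as 5631 and 4753 bp, and in the other 8 libraries as 362 to 384 bp. When loci shorter than 500 bp were left out before merging, which removes those of 362 to 384 bp, the interaction was 0.13 (adjusted p = 0.845). That setting removes the most abundant locus in 8 libraries and keeps it in the controls of day 1, and the part of the drawn lengths was not tested.

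Between day 1 and day 7, 34 scaffold regions rose and 14 fell in ethylene-treated fruit, against 14.3% higher and 11% lower over all tested regions. Of the 34 that rose, 32 overlapped a protein-coding gene. With median-of-ratios size factors the counts were 31 and 22, and with quantile normalization 34 and 23. The count of 48 was 22 when ethylene day 1 A was left out and 17 when ethylene day 1 C was.

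In control fruit 2 scaffold regions rose and 2 fell, against 0.262% higher and 1.05% lower over all tested regions, and 67 had an unadjusted p under 0.05. These comparisons share libraries with those of ethylene above. The 4 regions, named because they are so few, were Bscaffold7:203269-209854 (1.86 on the log2 scale, adjusted p = 0.0111) and Bscaffold51:66889-67243 (1.33, adjusted p = 0.0494), which rose, and Bscaffold80:73708-75146 (-1.42, adjusted p = 0.0459) and Bscaffold4:295945-305094 (-1.18, adjusted p = 0.0474), which fell. Bscaffold7 lost its call without control day 1 A (adjusted p = 0.0677) and turned to -0.26 (adjusted p = 0.719) with loci of at least 500 bp, and each of the other 3 without any 1 of 9 libraries. The fit to the 2 control groups alone called 0, and leaving out a library gave between 1 and 10, the highest without control day 1 B.

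The sequencing layout moved with the values of some scaffold regions. In 58 of the 604 (9.60%) all 3 single-end libraries lay above all 7 paired-end ones, and in 17 (2.81%) all lay below. Over all tested regions these shares were 5.05% and 0.868%. A difference between layouts of at least 1 on the log2 scale was found in 74 scaffold regions (12.3%) and in 660 chromosome regions (4.07%). The 17 lower ones were each a single locus over a protein-coding gene, 5 of them listed at 0 in all 3 single-end libraries.

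An example picked after its values were seen is Bscaffold126:51263-53689, over C4D60_Mb00t08460, which was at 0 in the single-end libraries and between 27.8 and 47.6 FPKM in the paired-end ones. Of the 116 regions called on day 1 (19.2% of the 604), 13 were among the 58 with higher single-end values (9.60% of the 604) and 0 among the 17. Ethylene day 1 has no single-end library, so low values in that group can by themselves help place a region among the 58. Whether the 13 exceed the share over all tested regions was not tested. Each group of day 7 has 1 single-end library. Scaffold regions also varied more within groups, with a median SD of 0.345 against 0.289 on chromosomes on the log2 scale, and in the paired-end libraries alone these were 0.215 and 0.209.

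For the least variable tested regions no overlapping gene was found, and their levels were low. Bscaffold2:173011-181282 stayed between 4.46 and 5.95 FPKM in the 10 libraries, Bscaffold9:15966-17437 between 4.49 and 5.67, and Bscaffold13:33059-36823 between 5.45 and 7.12. The control and ethylene libraries of a day overlapped in them, except at Bscaffold9 on day 7, where the highest control had 4.78 and the lowest ethylene library 4.79 FPKM, and none of the 5 comparisons passed for them.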

How the data were processed

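The authors trimmed the reads with Trimmomatic 0.38.0 after FastQC 0.11.8, mapped them with Tophat2 against DH PKW v1.1 and ran Cufflinks on every library. The authors deposited 1 table of FPKM values per library, which also holds bounds and a status. How strand and multi-mapped reads were handled, and how assembly was set, is not given in the sources used. Reads that fit both a scaffold and a chromosome can be assigned to either, so values of near-identical copies are uncertain.

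Regions were built as described above, with coordinates written 1-based. log2(FPKM + 1) was fitted with limma 3.58.1 in R 4.3.3 (means model of the 4 groups, variance trend, two-sided, Benjamini-Hochberg adjustment over the 16821 tested regions within each of 5 contrasts). Library measures were compared with exact permutation tests in Python 3.11.15. No count test was run, since the values are not counts. The code was tested on simulated data. The members, lists and tests were chosen with earlier results of these data known. Regions named were the 10 of highest mean FPKM, the 5 largest called changes per direction and day whose libraries do not overlap, the 3 smallest interaction p-values and the 3 least variable, with the 5 scaffolds that hold most tested regions. Scaffolds of a RefSeq gene table (BananaB_V1) were paired with those of the authors by gene spans, 335 of 346, and only its locus tags are printed. No sequence is printed. Alternatives were other pseudocounts (0.1 and 5), filters (none and 5), locus lengths (200 and 500 bp), scalings, layout, replicate blocks, variance models and left-out libraries. Leaving out loci with the status FAIL, and using loci at the same coordinates in all tables, were chosen after seeing the data.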

Additional observations from a re-analysis of the deposited data

Results flagged for a closer look

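In 16 scaffold regions the ethylene response of day 7 was unlike that of day 1 by limma's interaction term. The 3 with the smallest adjusted p were Bscaffold104:28418-29281, where the effect on day 7 was lower by 3.57 on the log2 scale (-3.57), Bscaffold73:99339-115929 (-2.85) and Bscaffold7:203269-209854 (-2.23). The last of these took the value 0.13 when short loci were left out, as described above.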

How the results depend on the processing

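For ethylene on day 1, leaving out each library gave 63 to 128 called scaffold regions (main 116; 72 without control day 1 A, and, of the ethylene libraries of that day, 74 without A and 63 without C). For ethylene on day 7 (main 48) the count was 92 with the highest FPKM among a region's loci, 91 with layout as a term, 31 with the groups of the contrast alone and 19 to 55 without a library. For control fruit between days (main 4) it was 2 with layout as a term, a mean FPKM of at least 5, no variance trend or a pseudocount of 0.1 or 5, 1 with paired-end libraries alone or loci of at least 200 or 500 bp, 0 with the groups alone and 1 to 10 without a library. For ethylene-treated fruit between days (main 48) it was 77 with paired-end libraries alone and 17 to 57 without a library. For the interaction (main 16) it was 35 with the highest FPKM, 31 with layout as a term, 25 with quantile normalization and 4 to 35 without a library. The library measures in paired-end libraries alone were -3.75, -2.09 and -0.203, no longer under 0.05, and the scaffold share over loci at the same coordinates in all tables, chosen after seeing the data, was -10.3. With loci of at least 500 bp, Bscaffold7:203269-209854 turned to 0.13 (interaction), -0.46 (ethylene on day 1) and -0.26 (control fruit between days).

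With a replicate block by letter the counts for ethylene on day 1 and day 7, control fruit, ethylene-treated fruit and the interaction were 106, 41, 3, 65 and 21, and with a replicate block by number 137, 51, 2, 68 and 19. Over all regions, same-letter libraries of day 7 correlated at 0.332 (A), 0.031 (B) and 0.118 (C). Control C with ethylene B, at 0.197, was above both own letters, so the letters were not taken to pair libraries. The A libraries of day 7 are both single-end, so letter and layout cannot be told apart there. The A libraries of day 1 correlated at -0.0308. With 2 libraries a group, every value of that day is -0.0308 or 0.0308, so it cannot judge pairing. Over scaffold regions the same-letter values of day 7 were 0.765 (A), 0.29 (B) and 0.288 (C). Control C with ethylene B was at 0.551 and control B with ethylene C at 0.455, and the A libraries of day 1 were at -0.121. Of the 49 calls at named regions, 26 stayed past the threshold with the same sign under every alternative run. The other 23 were 21 that lost it under some, and 3 at Bscaffold7 that reversed, 1 of which is also among the 21. Leaving out loci with the status FAIL changed no count of scaffold regions. No fragment numbers per region were at hand, which limits what can be said of regions near 1 FPKM.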
